A study of Mus musculus with 12 samples.

Results

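The 10 genes described here encode nuclear receptors that macrophages use: the lipid sensors Pparg and Ppard, their partners Rxra and Rxrb, the retinoic acid receptor Rara, the orphan receptors Nr4a1, Nr4a2 and Nr4a3, the vitamin D receptor Vdr and the glucocorticoid receptor Nr3c1. They were chosen by symbol, and all 10 are present among the 24465 genes of the data. Total RNA of mouse bone marrow-derived macrophages was sequenced after ribosomal RNA removal, in 4 groups of 3 libraries. The groups were Klf6fl/fl:Lyz2cre cells given TNF at 10 ng/ml for 6 hours, Lyz2cre cells given the same, untreated Klf6fl/fl:Lyz2cre cells and untreated Lyz2cre cells. Cre is expressed from Lyz2, a gene of myeloid cells, in both genotypes, and the first genotype carries floxed copies of Klf6 as well and is called Klf6-deleted below. The floxed exons and the strain, sex and age of the mice are not given. The labels do not tie the 3 libraries of a group to separate mice or dishes, so the p-values below measure the spread among these libraries, which may be technical. The series asks what KLF6, a DNA-binding factor with zinc fingers that belongs to the Krüppel-like proteins, does in macrophages in atherogenesis.

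Nuclear receptors are transcription factors, most of which are switched by small lipid-soluble ligands. PPARγ and PPARδ bind fatty acids and their derivatives, the retinoic acid receptor binds retinoic acid and the vitamin D receptor binds calcitriol, and all of them bind DNA as pairs with an RXR. The glucocorticoid receptor pairs with itself and represses many inflammatory genes in macrophages. The NR4A receptors need no known ligand for activity and are controlled mainly through how much of them is made, as immediate early genes.

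Promoter sequences, the 250 bases before an annotated start, were available from RefSeq (GRCm38.p6) for 9 of the 10 genes, in 16 windows, and not for Nr3c1. They were searched on both strands for the GC box GGGCGG, a site of Krüppel-like and Sp factors, and for TGACG, the half-site of the cyclic AMP response element. Overlapping matches were counted, and no base was shared between a GC box and a half-site in these windows. A GC box was present in 32.7% of 32851 mouse promoter windows of the same length and a half-site in 17.8%. The 3 Nr4a promoters are shown because they share 4 half-sites each, a number reached by 0.137% of all windows, and those of Vdr, Ppard and Rxra because these genes had the largest genotype differences among the remaining receptors. Capitals mark GC boxes and half-sites on either strand. Nr4a1 lies on the plus strand of chromosome 15 (window chr15:101266596-101266845), Nr4a2 on the minus strand of chromosome 2 (chr2:57124004-57124253), Nr4a3 on the plus strand of chromosome 4 (chr4:48045055-48045304), Vdr on the minus strand of chromosome 15 (chr15:97908297-97908546), Ppard on the plus strand of chromosome 17 (chr17:28232504-28232753) and Rxra on the plus strand of chromosome 2 (chr2:27676951-27677200, 1 of 2 windows).
Nr4a1: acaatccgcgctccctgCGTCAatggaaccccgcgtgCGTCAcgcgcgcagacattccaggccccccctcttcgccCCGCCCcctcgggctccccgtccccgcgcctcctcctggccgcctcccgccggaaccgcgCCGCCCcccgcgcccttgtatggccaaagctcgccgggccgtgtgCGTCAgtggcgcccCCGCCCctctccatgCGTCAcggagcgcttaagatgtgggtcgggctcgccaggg
Nr4a2: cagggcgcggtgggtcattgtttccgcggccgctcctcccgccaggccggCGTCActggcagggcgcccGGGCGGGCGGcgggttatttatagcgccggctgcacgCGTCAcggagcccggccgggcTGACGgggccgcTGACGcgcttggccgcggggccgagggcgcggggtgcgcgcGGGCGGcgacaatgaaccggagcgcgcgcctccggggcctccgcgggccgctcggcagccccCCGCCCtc
Nr4a3: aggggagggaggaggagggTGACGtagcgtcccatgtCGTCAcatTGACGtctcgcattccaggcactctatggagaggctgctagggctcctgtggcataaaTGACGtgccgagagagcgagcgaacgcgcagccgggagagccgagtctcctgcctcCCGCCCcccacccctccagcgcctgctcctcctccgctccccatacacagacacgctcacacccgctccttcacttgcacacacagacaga
Vdr: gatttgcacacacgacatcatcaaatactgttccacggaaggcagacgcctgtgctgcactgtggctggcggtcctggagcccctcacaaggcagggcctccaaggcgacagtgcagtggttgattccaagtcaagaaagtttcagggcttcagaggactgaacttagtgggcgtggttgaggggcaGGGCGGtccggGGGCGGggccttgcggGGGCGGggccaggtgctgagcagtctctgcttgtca
Ppard: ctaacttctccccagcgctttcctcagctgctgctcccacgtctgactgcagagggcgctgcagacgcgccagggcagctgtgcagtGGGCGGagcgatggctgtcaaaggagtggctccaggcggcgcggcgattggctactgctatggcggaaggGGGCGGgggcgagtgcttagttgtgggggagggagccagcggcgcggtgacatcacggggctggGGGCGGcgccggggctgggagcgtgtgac
Rxra: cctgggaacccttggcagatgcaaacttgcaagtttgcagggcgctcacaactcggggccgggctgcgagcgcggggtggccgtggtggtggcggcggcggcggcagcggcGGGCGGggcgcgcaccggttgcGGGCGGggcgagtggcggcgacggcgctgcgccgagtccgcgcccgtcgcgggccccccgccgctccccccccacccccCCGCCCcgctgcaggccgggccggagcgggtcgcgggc

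The Nr4a1 window holds 3 GC boxes, that of Nr4a2 holds 4 and that of Nr4a3 holds 1. Vdr, Ppard and Rxra have 3 GC boxes each and no half-site in the windows shown. The full 8-base cyclic AMP response element TGACGTCA occurs in none of the 16 windows and in 1.55% of all windows. The NBRE AAAGGTCA, the site that NR4A receptors bind as monomers, occurs in 1 of the 16, the second Rxra window, and in 1.34% of all. These matches describe the letters of the windows and were not tested for binding.

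Between 16.9 and 23.4 M reads per library fell on genes. Klf6 averaged 7101 ± 269 normalized read counts in untreated Klf6-deleted cells and 10118 ± 174 in untreated Lyz2cre cells, and 4161 ± 43.4 in Klf6-deleted cells with TNF and 7447 ± 255 in Lyz2cre cells with TNF (SD, n = 3 each). The log2 difference was -0.51 without TNF and -0.84 with TNF, so many Klf6 reads remained in the cells called Klf6-deleted. All 15 macrophage markers were detected in every group, and their summed share of reads was 1.39 to 1.48% in untreated Klf6-deleted libraries against 2.19 to 2.22% in untreated Lyz2cre libraries, and with TNF 1.34 to 1.36% in Klf6-deleted libraries against 1.48 to 1.52% in Lyz2cre libraries. Of the 15, 13 were lower and 1 higher in Klf6-deleted cells without TNF, and 9 lower and 6 higher with TNF. Stromal markers summed to 0.368 to 0.388% in Klf6-deleted libraries against 0.0233 to 0.0273% in Lyz2cre libraries without TNF, with 16 of the 16 tested higher, 2 of which passed the filter only through the Klf6-deleted group. With TNF they summed to 0.0265 to 0.0312% in Klf6-deleted libraries against 0.00595 to 0.00815% in Lyz2cre libraries, with 10 of 14 higher and 1 lower. Of these 10, 3 were below the filter level in at least 1 library. Monocyte and granulocyte markers summed to 0.0792 to 0.0832% in Klf6-deleted libraries against 0.0622 to 0.0680% in Lyz2cre libraries without TNF (8 of 13 higher, 5 lower), and to 0.0122 to 0.0133% in Klf6-deleted libraries against 0.0109 to 0.0130% in Lyz2cre libraries with it (1 of 9 higher, 4 lower). Endothelial markers summed to 0.0213 to 0.0225% in Klf6-deleted libraries against 0.0121 to 0.0130% in Lyz2cre libraries without TNF (5 of 6 higher, none lower), and to 0.0143 to 0.0148% in Klf6-deleted libraries against 0.0188 to 0.0217% in Lyz2cre libraries with it (none of 4 higher, 3 lower). Among called endothelial genes, 2 of the 5 higher without TNF were below the filter level in at least 1 library. With TNF, 2 of the 3 lower endothelial genes, Cdh5 and Flt1, passed the filter only through the Lyz2cre group, where they were high. The same held for Ngp, 1 of the 4 lower monocyte and granulocyte genes. In Klf6-deleted cells with TNF these 3 averaged 6.28 ± 1.30, 11.4 ± 7.91 and 6.33 ± 4.96 normalized counts (SD, n = 3 each). Nothing is therefore read from the count of lower endothelial genes with TNF. Over all genes tested, 27.6% were higher and 29.3% lower without TNF, and 26.5% and 30.8% with TNF. The lymphocyte markers stayed at or below 0.00131% in all groups. Emcn and Mpo were at 0 in TNF-treated Lyz2cre cells and Ms4a1 in TNF-treated Klf6-deleted cells. The part of other cells in the receptor results was not tested, and in bulk RNA fewer cells of a type and less RNA per cell cannot be told apart.

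Genotypes were compared separately without and with TNF by limma on log2(normalized count + 1), over genes with at least 1 CPM (reads per 1 M reads of the library) in at least 3 libraries, and a gene was called at an adjusted p below 0.05. Without TNF, 9 of the 10 receptors were tested, of which 3 were higher and 6 lower in Klf6-deleted cells, where 27.6% of all 12715 genes tested were higher and 29.3% lower. With TNF, 8 were tested, of which 6 were higher and 1 lower, where 26.5% of 11717 genes were higher and 30.8% lower. Vdr and Nr4a2 passed the filter without TNF only through the Klf6-deleted group, since a single Lyz2cre library reached 1 CPM for each, so nothing is read from the count of higher receptors there. Without untreated Klf6-deleted replicate 3 that count was 1, and without TNF-treated Klf6-deleted replicate 2 the count of higher receptors with TNF was 3. The deposited scaling left the median gene at -0.010 (log2) without TNF and -0.0090 with TNF. Scaling to total reads moved these medians by 0.13 and 0.33, with 5122 genes then higher and 2408 lower in place of 3508 and 3722 without TNF, and 7038 and 1716 in place of 3103 and 3608 with TNF. Receptors whose call depends on this scaling are named beside their values.

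**Figure D1:**
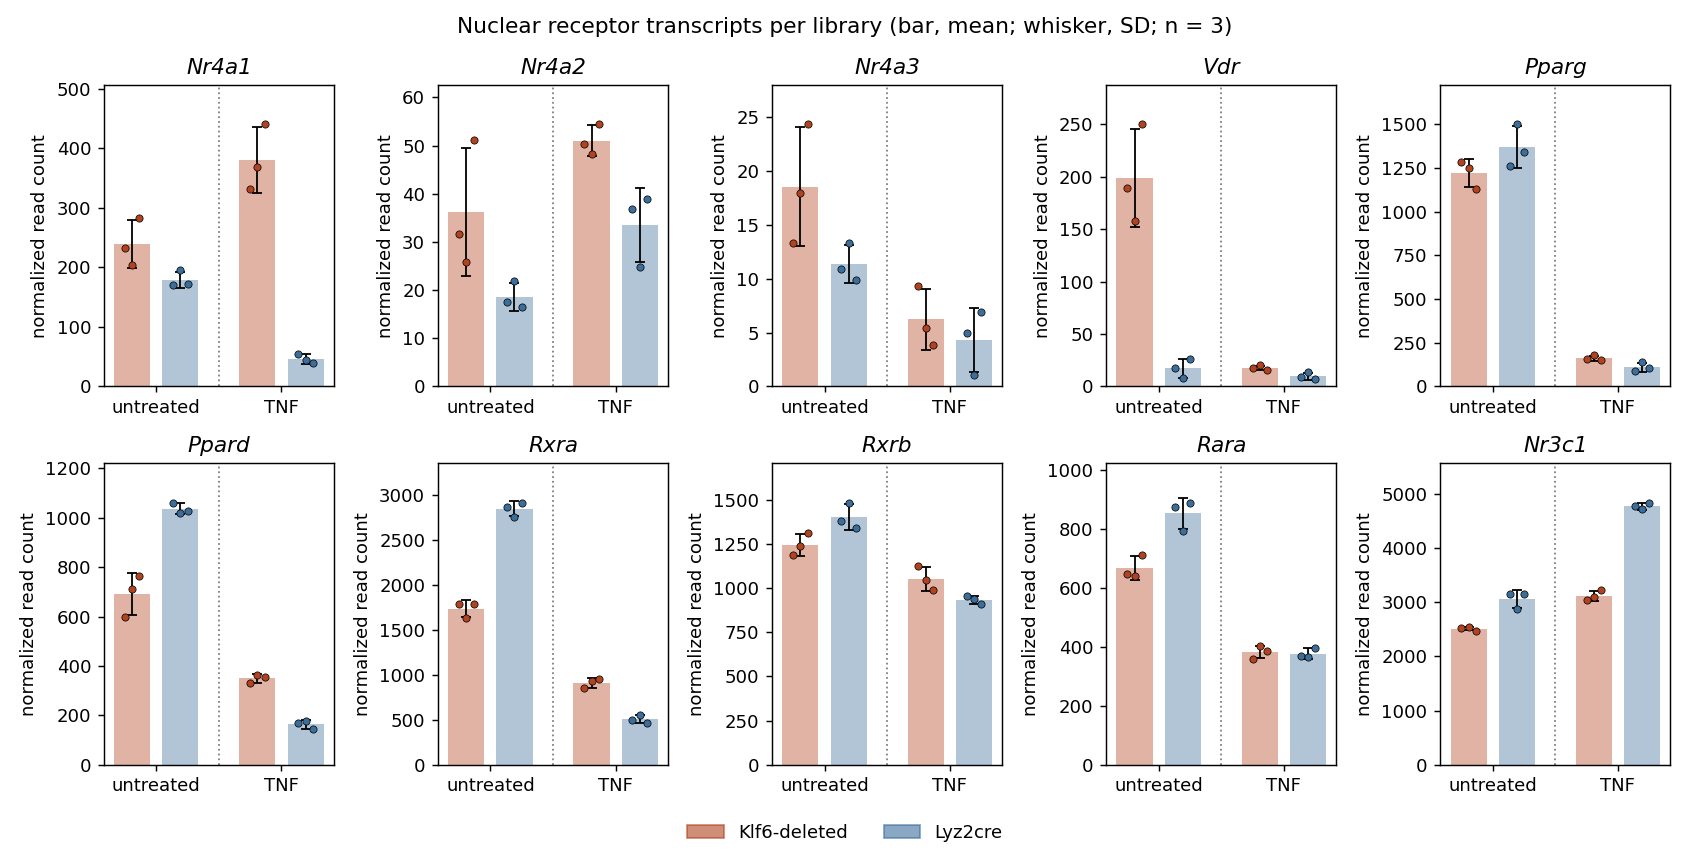
Normalized read counts (vertical axis) of the 10 receptors in each library, untreated and with TNF, in Klf6-deleted cells (red, left of each pair) and Lyz2cre cells (blue). Points are libraries, bars are means and whiskers are SDs (n = 3). Tables without and with TNF were normalized separately, so only red and blue of 1 condition share a scale. Nr4a1 with TNF is 332 to 440.3 in Klf6-deleted cells and 39.0 to 54.7 in Lyz2cre cells, and Rxra and Ppard are lower in Klf6-deleted cells without TNF and higher with it.

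Nr4a1 was higher in Klf6-deleted cells without and with TNF, and with TNF it showed the largest of the 8 tested differences. Nr4a2 and Nr4a3 rested on few reads. Nr4a1 (ENSMUSG00000023034, also known as Nur77; GRCm38 chromosome 15, 101254269 to 101274795, plus strand) restrains inflammatory gene expression in mouse macrophages. With TNF it was at 332, 368 and 440.3 normalized counts in Klf6-deleted libraries, against 54.7, 44.3 and 39.0 in Lyz2cre libraries. The lowest Klf6-deleted library was above every Lyz2cre library, and the log2 difference was 3.02 with a standard error of 0.160 (limma, adjusted p = 9.5e-11), an 8.13-fold difference. Without TNF it was at 233, 203 and 283 in Klf6-deleted libraries, against 171, 195 and 172 in Lyz2cre libraries. These groups did not overlap either, but lay closer, with a log2 difference of 0.41 and a standard error of 0.124 (limma, adjusted p = 0.0093). Without untreated Klf6-deleted replicate 3, the highest of the group, it was 0.28 (limma, adjusted p = 0.0823). The genotype difference was larger with TNF than without by 2.62 on the log2 scale (standard error 0.213, limma over all 12 libraries, adjusted p = 3.1e-09). Among all 11425 genes tested for such a change between conditions, 52.2% were called.

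Nr4a2 (ENSMUSG00000026826; chromosome 2, 57106830 to 57124003, minus strand), known also for its role in dopamine neurons, was low in all groups. It was at 31.7, 25.9 and 51.1 normalized counts in untreated Klf6-deleted libraries, against 17.5, 21.8 and 16.4 in untreated Lyz2cre libraries, which are 26 to 63 reads in the Klf6-deleted and 15 to 18 reads in the Lyz2cre libraries. The groups did not overlap, and the log2 difference was 0.88 with a standard error of 0.320 (limma, adjusted p = 0.0256), in a gene that entered the test through its Klf6-deleted libraries. Without untreated Klf6-deleted replicate 3 it was 0.61 (limma, adjusted p = 0.185), and the call was also lost without Lyz2cre replicate 1 (adjusted p = 0.0531) or replicate 3 (adjusted p = 0.0613). With TNF, Nr4a2 was at 50.4, 48.2 and 54.4 in Klf6-deleted libraries, against 36.8, 24.7 and 39.0 in Lyz2cre libraries. All Klf6-deleted libraries were above all Lyz2cre libraries, with a log2 difference of 0.62 and a standard error of 0.247 (limma, adjusted p = 0.0434). That call was lost with DESeq2 on the recovered reads (adjusted p = 0.0731), with no filter on low genes (limma, adjusted p = 0.0879), and without any one of 4 libraries: all 3 Klf6-deleted ones (limma, adjusted p of 0.0894, 0.0755 and 0.121 for replicates 1, 2 and 3) and Lyz2cre replicate 2 (adjusted p = 0.154, log2 difference 0.42). The change of the difference between conditions was -0.26 with a 95% interval of -1.10 to 0.57 (limma, adjusted p = 0.601).

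Nr4a3 (ENSMUSG00000028341; chromosome 4, 48045153 to 48086447, plus strand) was the scarcest of the 10 and was not tested in either condition, since at most 1 library of any group reached 1 CPM. It was at 13.3, 17.9 and 24.4 normalized counts in untreated Klf6-deleted libraries, against 10.9, 13.3 and 9.84 in untreated Lyz2cre libraries, and with TNF at 9.34, 5.45 and 3.89 in Klf6-deleted libraries against 4.97, 1.03 and 6.88 in Lyz2cre libraries. With TNF these values rest on 4 to 10 reads in Klf6-deleted libraries and 1 to 6 reads in Lyz2cre libraries, and the groups overlapped. In the fit with no filter the log2 difference was 0.63 without TNF (standard error 0.417, limma, adjusted p = 0.283) and 0.59 with TNF (standard error 0.635, limma, adjusted p = 0.533), so a difference was not detectable at this depth.

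Immediate early genes, the class to which the Nr4a genes belong, went both ways. Without TNF, 8 of the 16 tested were higher and 6 lower in Klf6-deleted cells, against 27.6% and 29.3% of all genes tested. The median log2 difference was 0.33, and scaled to total reads 9 were higher and 4 lower. Fosl1, an AP-1 subunit, averaged 216 ± 3.47 normalized counts in Klf6-deleted cells and 57.4 ± 14.5 in Lyz2cre cells (SD, n = 3 each; log2 difference 1.93, limma, adjusted p = 2.2e-08). Dusp1, a phosphatase that switches off p38 and JNK kinases, averaged 1480.4 ± 29.7 in Klf6-deleted cells and 647 ± 95.5 in Lyz2cre cells. With TNF, 5 of 15 were higher and 6 lower, against 26.5% and 30.8% of all genes tested. The median was 0.15, and scaled to total reads 9 were higher and 5 lower, with a median of 0.48. Dusp1 was then lower in Klf6-deleted cells (log2 difference -0.75, limma, adjusted p = 3.4e-09), the opposite of its side without TNF. Jun, the AP-1 subunit, averaged 3609.7 ± 19.1 in Klf6-deleted cells and 942 ± 23.7 in Lyz2cre cells (log2 difference 1.94, limma, adjusted p = 7.5e-15), and Fosl1 averaged 106 ± 10.9 in Klf6-deleted cells and 25.3 ± 1.45 in Lyz2cre cells. Egr2, a zinc-finger factor, went the other way at 650.4 ± 29.0 in Klf6-deleted cells and 1528 ± 86.0 in Lyz2cre cells (log2 difference -1.23, limma, adjusted p = 7.3e-11). Zfp36, whose protein destabilises Tnf mRNA, was also lower at 3240.4 ± 117 in Klf6-deleted cells and 8336 ± 307 in Lyz2cre cells. The other immediate early genes named by size of change were Klf4, higher, and Btg2, lower, both without TNF.

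Rxra and Ppard changed side between the conditions, lower in Klf6-deleted cells without TNF and higher with it. Rxra (ENSMUSG00000015846; chromosome 2, 27676440 to 27762957, plus strand) encodes RXRα, the shared partner of the lipid and vitamin receptors. Without TNF it was at 1790.5, 1629.9 and 1786 normalized counts in Klf6-deleted libraries, against 2870.1, 2759 and 2915 in Lyz2cre libraries. With TNF it was at 849, 932 and 957 in Klf6-deleted libraries, against 498, 556 and 464 in Lyz2cre libraries. In neither condition did the groups overlap, and their order was opposite. The log2 difference was -0.72 without TNF (standard error 0.0460, limma, adjusted p = 2.1e-10) and 0.85 with TNF (standard error 0.0793, limma, adjusted p = 1.2e-07). The change between conditions was 1.57 (standard error 0.0920, limma, adjusted p = 2.0e-11), and 1.76 when scaled to total reads.

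Ppard (ENSMUSG00000002250; chromosome 17, 28232700 to 28301474, plus strand), which senses fatty acids and drives fatty acid oxidation genes, showed the same change of side. Without TNF it was at 598, 709.8 and 765 normalized counts in Klf6-deleted libraries, against 1061, 1021 and 1028 in Lyz2cre libraries. With TNF it was at 329.7, 363 and 356 in Klf6-deleted libraries, against 167, 179 and 144 in Lyz2cre libraries. Again the groups were apart in both conditions, with a log2 difference of -0.59 without TNF (standard error 0.0733, limma, adjusted p = 1.5e-06) and 1.10 with TNF (standard error 0.112, limma, adjusted p = 3.5e-07). The change between conditions was 1.69 with a standard error of 0.132 (limma, adjusted p = 1.7e-09).

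Rxrb (ENSMUSG00000039656; chromosome 17, 34031812 to 34038399, plus strand), the gene of RXRβ, moved little. It was at 1187, 1237 and 1311 normalized counts in untreated Klf6-deleted libraries, against 1379, 1484 and 1341 in untreated Lyz2cre libraries. With TNF it was at 1125, 1047 and 989 in Klf6-deleted libraries, against 955, 939.9 and 909 in Lyz2cre libraries. The groups did not overlap in either condition, but the log2 differences were small, at -0.17 without TNF (standard error 0.0536, limma, adjusted p = 0.0114) and 0.17 with TNF (standard error 0.0634, limma, adjusted p = 0.0305). Scaled to total reads, the difference without TNF was -0.037 (limma, adjusted p = 0.560) and that with TNF 0.50 (adjusted p = 3.2e-06). On the deposited scale the call without TNF was lost without Klf6-deleted replicate 1 (limma, adjusted p = 0.0578) or Lyz2cre replicate 2 (adjusted p = 0.0688). That with TNF was lost without Klf6-deleted replicate 1 (limma, adjusted p = 0.153), Klf6-deleted replicate 2 (adjusted p = 0.0688) or Lyz2cre replicate 3 (adjusted p = 0.101). The change between conditions was 0.34 with a standard error of 0.0833 (limma, adjusted p = 0.0019).

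Pparg (ENSMUSG00000000440; chromosome 6, 115360951 to 115490399, plus strand) encodes PPARγ, the receptor behind lipid uptake genes in alveolar macrophages and foam cells. It overlaps the predicted gene Gm44079 on the opposite strand, and whether the counting used strand is not stated. Without TNF it was at 1283, 1247 and 1131 normalized counts in Klf6-deleted libraries, against 1263, 1500.0 and 1343 in Lyz2cre libraries, and the groups overlapped. The log2 difference was -0.16 with a standard error of 0.0631 (limma, adjusted p = 0.0343). That call did not hold when scaled to total reads (-0.031, adjusted p = 0.687) or by TMM (-0.15, adjusted p = 0.0524), with DESeq2 (-0.15, adjusted p = 0.0654), or in limma without Klf6-deleted replicate 3 (-0.11, adjusted p = 0.159), Lyz2cre replicate 2 (-0.096, adjusted p = 0.213) or Lyz2cre replicate 3 (-0.18, adjusted p = 0.0598). With TNF, Pparg was at 157, 177 and 149 in Klf6-deleted libraries, against 86.5, 138 and 108 in Lyz2cre libraries. All Klf6-deleted libraries were above all Lyz2cre libraries, with a log2 difference of 0.56 and a standard error of 0.167 (limma, adjusted p = 0.0095). Without Klf6-deleted replicate 2 it was 0.49 (limma, adjusted p = 0.0503) and without Lyz2cre replicate 1 it was 0.39 (adjusted p = 0.0526). The change between conditions was 0.72 (standard error 0.175, limma, adjusted p = 0.0019).

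Rara (ENSMUSG00000037992; chromosome 11, 98927818 to 98974942, plus strand), the retinoic acid receptor α, was lower in untreated Klf6-deleted cells. It overlaps the annotated gene Gm22061 on the same strand. It was at 648, 642 and 714 normalized counts in untreated Klf6-deleted libraries, against 876, 793 and 890.4 in untreated Lyz2cre libraries. These did not overlap, with a log2 difference of -0.35 and a standard error of 0.0650 (limma, adjusted p = 1.4e-04). With TNF it was at 361, 403 and 386 in Klf6-deleted libraries, against 369, 366 and 398 in Lyz2cre libraries, and the groups overlapped. The log2 difference there was 0.020 with a 95% interval of -0.16 to 0.20 (limma, adjusted p = 0.856), and scaled to total reads it was 0.35 (adjusted p = 0.0019). The change between conditions was 0.37 with a standard error of 0.104 (limma, adjusted p = 0.0055).

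**Figure D2:**
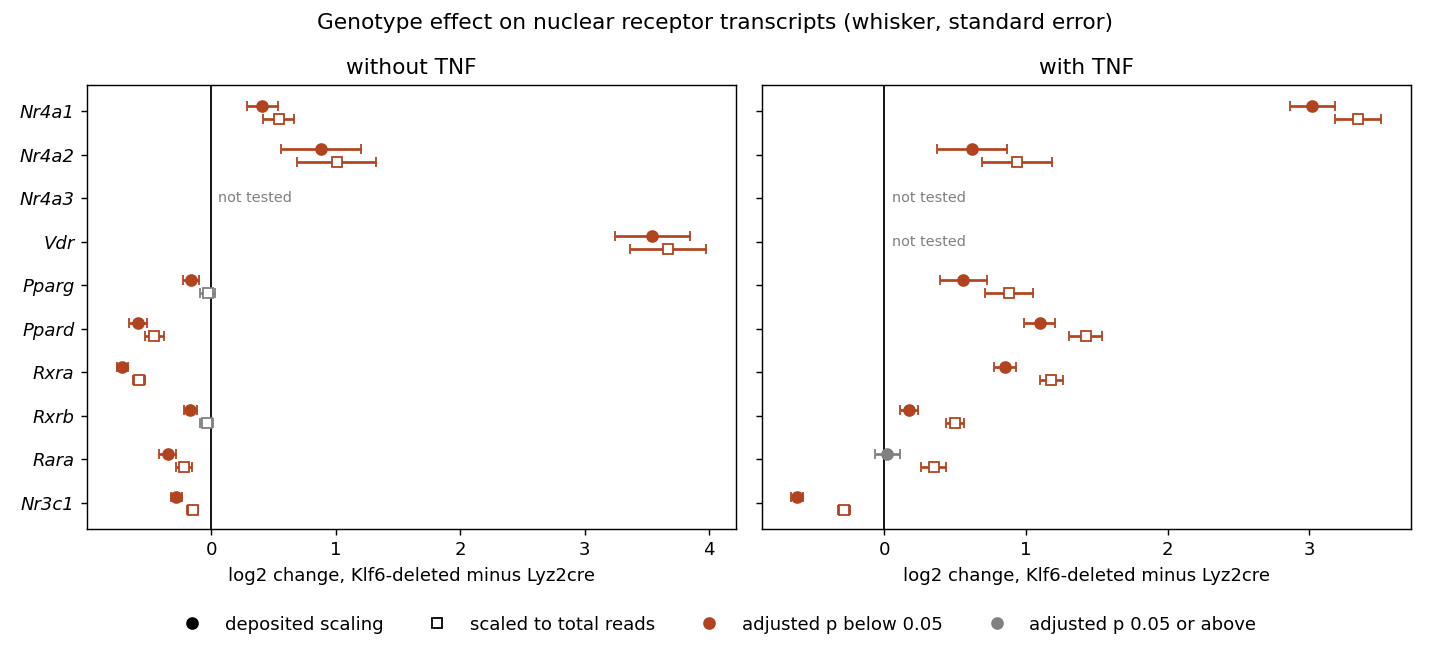
Log2 difference of Klf6-deleted minus Lyz2cre cells (horizontal axis) for each receptor, without TNF (left) and with TNF (right). Filled circles are the deposited scaling, open squares the scaling to total reads, whiskers standard errors, red an adjusted p below 0.05 and grey one at or above it (limma). Rxra is at -0.72 on the left and 0.85 on the right, and Nr3c1 is below 0 in both.

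Genes known to be controlled by PPARs included some with much higher transcripts in Klf6-deleted cells, beside others that were lower. Without TNF, 7 of the 19 tested were higher and 10 lower, against 27.6% and 29.3% of all genes tested. The median log2 difference was -0.12, and scaled to total reads 8 were higher and 6 lower, with a median of 0.012. Cd36, the scavenger receptor for oxidised lipoprotein, averaged 74557 ± 5617 normalized counts in Klf6-deleted cells and 24011 ± 867 in Lyz2cre cells (SD, n = 3 each; log2 difference 1.63, limma, adjusted p = 2.5e-15). Pdk4, a kinase that shuts glucose carbon out of mitochondria, averaged 407 ± 66.4 in Klf6-deleted cells and 32.7 ± 7.95 in Lyz2cre cells, and Angptl4, an inhibitor of lipoprotein lipase, 502 ± 34.7 in Klf6-deleted cells and 140.4 ± 22.8 in Lyz2cre cells. With TNF, 8 of 18 were higher and 5 lower, against 26.5% and 30.8% of all genes tested. The median was 0.17, and scaled to total reads 12 were higher and 3 lower, with a median of 0.49. Of the 8 higher genes, 1, Angptl4, then passed the filter only through the Klf6-deleted group. Cd36 then averaged 33024 ± 515 in Klf6-deleted cells and 8316 ± 731 in Lyz2cre cells (log2 difference 1.99, limma, adjusted p = 1.2e-14). The fatty acid binding protein gene Fabp4 averaged 687 ± 60.3 in Klf6-deleted cells and 149 ± 32.6 in Lyz2cre cells (log2 difference 2.22, limma, adjusted p = 6.0e-10). Hilpda, which slows lipid droplet breakdown, averaged 261 ± 26.1 in Klf6-deleted cells and 80.1 ± 12.8 in Lyz2cre cells. Among the lower members with TNF were Cpt1a, the gate of fatty acid oxidation (log2 difference -0.93, limma, adjusted p = 6.6e-11), and the mitochondrial carrier Ucp2 (-0.92, adjusted p = 1.0e-11), both named after their values were seen.

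Retinoid genes included some of the largest differences. Of 16 in the list, 9 were tested without TNF, with 4 higher, 3 lower and a median log2 difference of 0.67. With TNF 6 were tested, with 4 higher, 1 lower and a median of 0.98. Scaled to total reads, 5 were higher and 3 lower without TNF, with a median of 0.80, and 4 and 1 with TNF, with a median of 1.31. On the deposited scale, 27.6% of all genes tested were higher and 29.3% lower without TNF, and 26.5% and 30.8% with TNF. Hic1 without TNF and Cyp26b1 with TNF are among the higher retinoid genes but passed the filter only through the Klf6-deleted group. Among the retinoid genes at 1 CPM or more in every library of the condition, 3 were higher and 3 lower without TNF, with a median of 0.28. With TNF 3 were higher and 1 lower, with a median of 0.87. Aldh1a2, which makes retinoic acid, averaged 723 ± 41.8 normalized counts in untreated Klf6-deleted cells and 50.0 ± 8.04 in untreated Lyz2cre cells (SD, n = 3 each; log2 difference 3.84, limma, adjusted p = 1.3e-14). Cyp26b1, which degrades retinoic acid and is induced by it, averaged 387 ± 54.4 in Klf6-deleted cells and 46.2 ± 14.3 in Lyz2cre cells without TNF, and 42.1 ± 10.8 in Klf6-deleted cells and 6.59 ± 4.00 in Lyz2cre cells with TNF. Tgm2, a transglutaminase induced by retinoic acid, averaged 2612 ± 216 in Klf6-deleted cells and 715 ± 20.7 in Lyz2cre cells without TNF, and the repressor gene Hic1 97.3 ± 2.94 in Klf6-deleted cells and 16.5 ± 6.74 in Lyz2cre cells. With TNF, the retinaldehyde reductase gene Dhrs3 averaged 1987 ± 60.1 in Klf6-deleted cells and 932 ± 40.5 in Lyz2cre cells, whereas without TNF it was lower in Klf6-deleted cells (log2 difference -0.45, limma, adjusted p = 3.3e-09). Cd38, an NAD-consuming enzyme, averaged 4644 ± 34.4 in Klf6-deleted cells and 1793 ± 159 in Lyz2cre cells with TNF. Rdh10, the retinol dehydrogenase, was lower at 313 ± 25.0 in Klf6-deleted cells and 696 ± 23.5 in Lyz2cre cells (log2 difference -1.15, limma, adjusted p = 5.0e-09). Stromal markers, given above, moved in the same direction as the higher genes without TNF, and their part was not tested.

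Vdr was the receptor with the largest difference without TNF. The gene (ENSMUSG00000022479; chromosome 15, 97854425 to 97910630, minus strand) was at 189, 158 and 250.1 normalized counts in untreated Klf6-deleted libraries, against 17.5, 8.47 and 26.3 in untreated Lyz2cre libraries. These are 158 to 308 reads in Klf6-deleted against 7 to 24 reads in Lyz2cre libraries, and the groups were far apart. The log2 difference was 3.54 with a standard error of 0.302 (limma, adjusted p = 1.0e-08), in a gene that entered the test through its Klf6-deleted libraries. With no filter on low genes the adjusted p was 8.4e-10 (limma). The filter does not alter a gene's own values, so the difference of 3.54 could not change and its repeat is no support. Stromal markers summed to 0.368 to 0.388% of reads in the same Klf6-deleted libraries against 0.0233 to 0.0273% in the Lyz2cre ones, and their part in the Vdr difference was not tested. With TNF, Vdr was at 17.7, 20.0 and 15.6 in Klf6-deleted libraries, against 8.95, 13.4 and 6.88 in Lyz2cre libraries. All were low, and although the groups did not overlap, Vdr was below the filter and the log2 difference in the fit without it was 0.84 (standard error 0.442, limma, adjusted p = 0.163). In that fit the difference was smaller with TNF than without by 2.70 on the log2 scale, a change of -2.70 (standard error 0.518, limma, adjusted p = 1.6e-04).

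Genes that make or break down the vitamin D hormone were few. Cyp24a1, the classical target of the receptor that degrades calcitriol, was looked for by symbol and found in neither condition's data. Cyp27a1, a mitochondrial sterol hydroxylase that also hydroxylates vitamin D, averaged 1053 ± 10.2 normalized counts in untreated Klf6-deleted cells and 3198 ± 42.1 in untreated Lyz2cre cells (SD, n = 3 each; log2 difference -1.60, limma, adjusted p = 6.8e-16). With TNF it averaged 119 ± 10.1 in Klf6-deleted cells and 206 ± 9.74 in Lyz2cre cells (log2 difference -0.79, limma, adjusted p = 5.8e-05). Cyp2r1, the liver-type 25-hydroxylase, averaged 50.1 ± 7.89 in Klf6-deleted cells and 31.9 ± 6.51 in Lyz2cre cells without TNF (log2 difference 0.64, limma, adjusted p = 0.0349). Of the 2 genes tested in each condition, 1 was higher and 1 lower without TNF and none was higher and 1 lower with it. Over all genes tested, 27.6% were higher and 29.3% lower without TNF, and 26.5% and 30.8% with it.

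Nr3c1 was the only receptor of the 10 to be lower with Klf6 deleted both without and with TNF. The gene (ENSMUSG00000024431; chromosome 18, 39410545 to 39519421, minus strand) was at 2527, 2537 and 2472 normalized counts in untreated Klf6-deleted libraries, against 3154, 2870.4 and 3152 in untreated Lyz2cre libraries. With TNF it was at 3031, 3098 and 3219 in Klf6-deleted libraries, against 4771, 4709.9 and 4837 in Lyz2cre libraries. In each condition the groups were apart, with the Klf6-deleted libraries lower. The log2 difference was -0.28 without TNF (standard error 0.0434, limma, adjusted p = 1.9e-05) and -0.62 with TNF (standard error 0.0432, limma, adjusted p = 3.5e-09), and when scaled to total reads -0.15 (adjusted p = 0.0082) and -0.29 (adjusted p = 1.6e-05). The change between conditions was -0.33 with a standard error of 0.0596 (limma, adjusted p = 9.9e-05). When scaled to total reads that change was -0.14 and was not called (adjusted p = 0.0601).

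Glucocorticoid response genes were divided. Without TNF, 7 of the 17 tested were higher and 7 lower, against 27.6% and 29.3% of all genes tested. The median log2 difference was -0.069, or 0.064 with 8 higher and 4 lower when scaled to total reads. With TNF, 8 of 15 were higher and 6 lower, against 26.5% and 30.8% of all genes tested. The median was 0.51, or 0.84 with 8 higher and 5 lower when scaled to total reads. Fkbp5, a co-chaperone that is induced by glucocorticoids and dampens the receptor, changed side between conditions. It averaged 279 ± 4.42 normalized counts in untreated Klf6-deleted cells and 114 ± 21.3 in untreated Lyz2cre cells (SD, n = 3 each; log2 difference 1.29, limma, adjusted p = 9.3e-08), and with TNF 213 ± 6.90 in Klf6-deleted cells and 470.0 ± 11.2 in Lyz2cre cells (log2 difference -1.14, limma, adjusted p = 1.4e-08). Tsc22d3, encoding the anti-inflammatory mediator GILZ, averaged 321 ± 16.1 in Klf6-deleted cells with TNF and 84.8 ± 11.2 in Lyz2cre cells with TNF (log2 difference 1.91, limma, adjusted p = 2.9e-09), and was on the other side without TNF (-0.53, adjusted p = 1.8e-06). Klf9, a Krüppel-like factor induced by the hormone, averaged 178 ± 22.5 in Klf6-deleted cells and 49.9 ± 4.96 in Lyz2cre cells with TNF. Without TNF, Cd163, the haemoglobin scavenger receptor that glucocorticoids induce, was lower at 324 ± 31.6 in Klf6-deleted cells and 1442 ± 61.1 in Lyz2cre cells (log2 difference -2.16, limma, adjusted p = 1.9e-14). Tgfbr3, a TGFβ co-receptor, was higher at 596 ± 67.9 in Klf6-deleted cells and 78.7 ± 12.0 in Lyz2cre cells, as were Ddit4, an mTORC1 inhibitor, at 282 ± 10.7 in Klf6-deleted cells and 51.4 ± 5.02 in Lyz2cre cells, and Errfi1, an inhibitor of the EGF receptor, at 2061 ± 90.1 in Klf6-deleted cells and 453 ± 22.4 in Lyz2cre cells.

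Chaperones that fold the glucocorticoid receptor, with the enzymes that activate its hormone, counted 5 higher and 1 lower of 10 tested without TNF and 2 higher and 5 lower of 9 with TNF. The medians were 0.21 and -0.31 (log2). Scaled to total reads, 8 were higher and none lower without TNF, and 4 higher and 2 lower with TNF, with a median of 0.016. Hsp90aa1, the inducible HSP90, was higher in both conditions, at 6506 ± 263 normalized counts in untreated Klf6-deleted cells and 4214 ± 93.9 in untreated Lyz2cre cells and at 6370.1 ± 81.0 in Klf6-deleted cells and 4600.2 ± 234 in Lyz2cre cells with TNF (SD, n = 3 each; log2 differences 0.63 and 0.47, limma, adjusted p = 9.9e-11 and 1.5e-07). Hsd11b1, which regenerates active glucocorticoid in cells, averaged 34.5 ± 6.36 in Klf6-deleted cells and 12.1 ± 6.88 in Lyz2cre cells without TNF (log2 difference 1.60, limma, adjusted p = 0.0037), and passed the filter only through the Klf6-deleted group. Stip1, the adaptor between HSP70 and HSP90, averaged 1998 ± 97.7 in Klf6-deleted cells and 1523 ± 76.6 in Lyz2cre cells without TNF, and 2635 ± 108 in Klf6-deleted cells and 3399.7 ± 55.2 in Lyz2cre cells with TNF. Scaled to total reads, the Stip1 difference with TNF was -0.041. Dnaja1, an HSP40 co-chaperone, averaged 2415 ± 89.5 in Klf6-deleted cells and 3436 ± 157 in Lyz2cre cells with TNF. Its log2 difference was -0.51, and scaled to total reads -0.18.

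**Figure D3:**
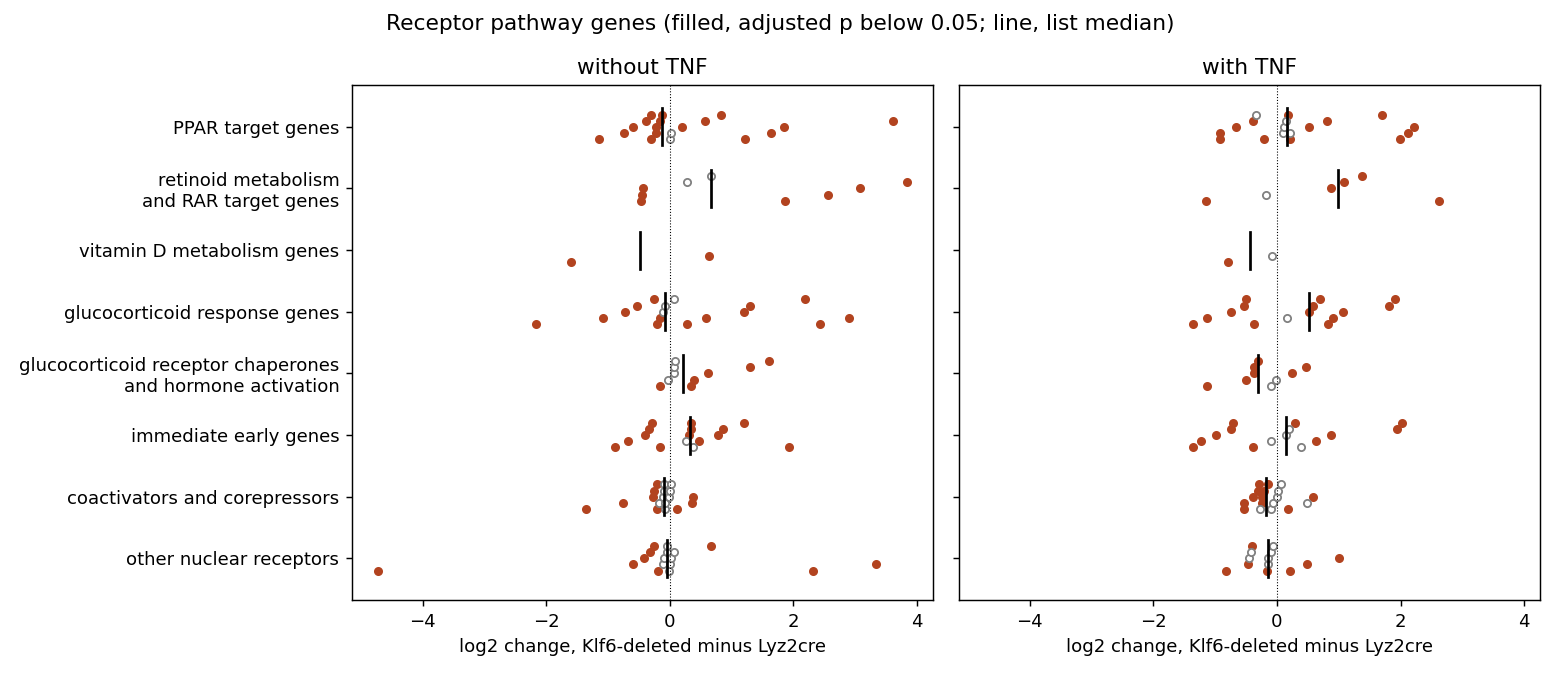
Log2 difference of Klf6-deleted minus Lyz2cre cells (horizontal axis) of single genes in 8 receptor-related lists, without TNF (left) and with TNF (right). Filled points had an adjusted p below 0.05 (limma), open points did not, and the black line is the list's median. Most lists hold genes on both sides of 0. The PPAR targets, for example, had 7 higher and 10 lower of 19 tested without TNF, against 27.6% and 29.3% of all genes tested.

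Levels with TNF were set beside those without as CPM within each genotype. The conditions stand in tables normalized separately and tests were kept within a table, so these ratios were not tested. In Klf6-deleted cells 3 of the 10 receptors were at least 2-fold lower with TNF, and in Lyz2cre cells 6 were, or 5 with 1 at least 2-fold higher when scaled by TMM over all libraries. Of the 9 receptors with at least 1 CPM in at least 3 of the 12 libraries these were 2 and 5, where 18.1% of all 13062 such genes were at least 2-fold lower in Klf6-deleted cells and 27.4% in Lyz2cre cells. By TMM 4 of the 9 were at least 2-fold lower and 1 higher in Lyz2cre cells, as were 21.1% and 12.7% of those genes. Pparg was far lower with TNF in both genotypes, at 9.79 ± 0.892 CPM with TNF and 64.4 ± 4.23 without in Klf6-deleted cells and at 5.38 ± 1.33 with TNF and 65.8 ± 5.38 without in Lyz2cre cells (SD, n = 3 each), which is 15.2% of the untreated level in Klf6-deleted cells and 8.17% in Lyz2cre cells. The lower level after TNF was seen for Ppard and Rxra mainly in Lyz2cre cells. Ppard was at 21.3 ± 1.07 CPM with TNF and 36.5 ± 4.52 without in Klf6-deleted cells (58.3%), and at 7.94 ± 0.968 with TNF and 49.9 ± 1.31 without in Lyz2cre cells (15.9%). Rxra was at 55.5 ± 3.43 with TNF and 91.6 ± 4.43 without in Klf6-deleted cells (60.6%), and at 24.6 ± 2.65 with TNF and 137 ± 4.64 without in Lyz2cre cells (17.9%).

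Nr4a1 stood on opposite sides of its untreated level in the genotypes. It was at 23.1 ± 3.36 CPM with TNF and 12.6 ± 2.10 without in Klf6-deleted cells, a log2 ratio of 0.87, and at 2.23 ± 0.387 with TNF and 8.62 ± 0.603 without in Lyz2cre cells, a log2 ratio of -1.95. Nr4a2 was higher with TNF in both, at 3.10 ± 0.192 with TNF and 1.91 ± 0.693 without in Klf6-deleted cells and 1.62 ± 0.350 with TNF and 0.893 ± 0.131 without in Lyz2cre cells. In Lyz2cre cells its log2 ratio was 0.86 on CPM and 1.17 by TMM, so it was 2-fold higher only by TMM. Nr4a3 had log2 ratios of -1.37 in Klf6-deleted cells and -1.40 in Lyz2cre cells, on few reads. Vdr was at 1.08 ± 0.135 with TNF and 10.5 ± 2.45 without in Klf6-deleted cells, a log2 ratio of -3.28, in libraries whose stromal markers were also lower with TNF. In Lyz2cre cells it was at 0.474 ± 0.170 with TNF and 0.839 ± 0.431 without. Nr3c1 was the abundant receptor that was higher with TNF in both genotypes, at 189 ± 5.72 with TNF and 133 ± 2.20 without in Klf6-deleted cells and 231 ± 1.30 with TNF and 147 ± 8.74 without in Lyz2cre cells. Rara was at 66.2% of its untreated level in Klf6-deleted cells and 44.6% in Lyz2cre cells. In Lyz2cre cells its log2 ratio was -1.17 on CPM and -0.85 by TMM, so it was 2-fold lower only on CPM. Rxrb was at 97.5% in Klf6-deleted cells and 67.2% in Lyz2cre cells, and the log2 ratio of Rxrb in Klf6-deleted cells was -0.036 on CPM and 0.049 by TMM, so it has no stable direction.

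**Figure D4:**
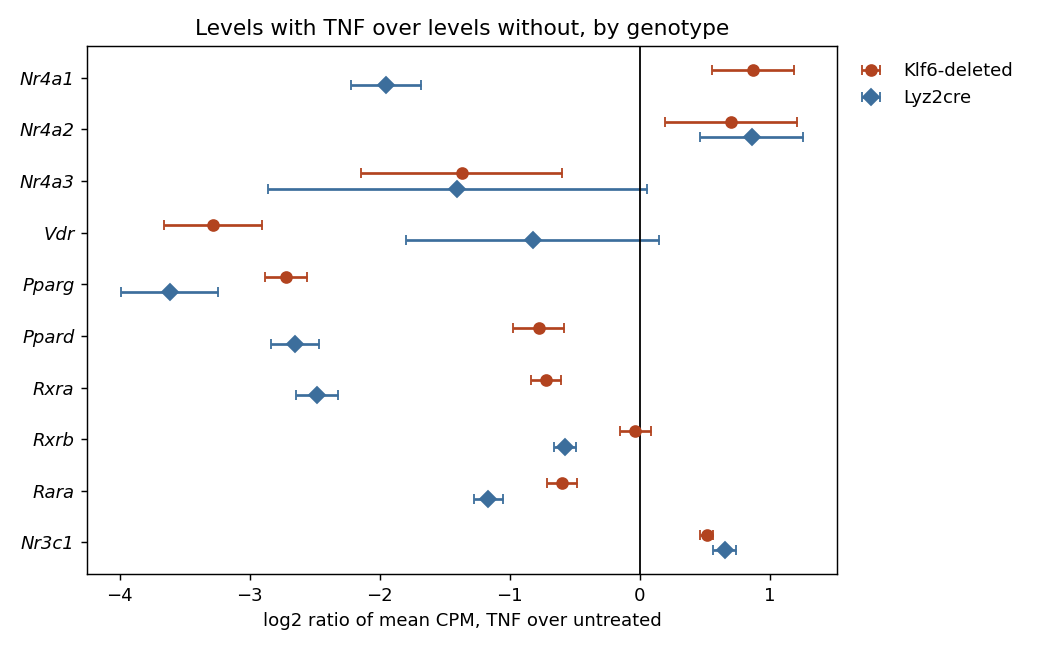
Log2 ratio of mean CPM with TNF over mean CPM without (horizontal axis) for each receptor in Klf6-deleted cells (circles) and Lyz2cre cells (diamonds). Whiskers are the SDs of log2 CPM of both groups combined (root of the summed variances, n = 3 each), and no test was made. Nr4a1 is at 0.87 in Klf6-deleted cells and -1.95 in Lyz2cre cells, and Ppard and Rxra are nearer 0 in Klf6-deleted cells.

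Divided by the length of each gene's exons (CPM per kilobase), the order of the receptors differed between conditions. In untreated Klf6-deleted cells Pparg led at 21.8 ± 1.43, followed by Nr3c1 at 17.2 ± 0.286, Rxra at 16.8 ± 0.812 and Rxrb at 16.5 ± 0.834, which did not differ beyond their spread. In untreated Lyz2cre cells Rxra led at 25.1 ± 0.850, before Pparg at 22.3 ± 1.82, Nr3c1 at 19.2 ± 1.14 and Rxrb at 17.0 ± 0.800 (SD, n = 3). In both genotypes Rara, Ppard and Nr4a1 followed in that order, and Vdr, Nr4a2 and Nr4a3 were last, with the 3 overlapping in Lyz2cre cells from neighbour to neighbour. With TNF the glucocorticoid receptor led in both genotypes, at 24.7 ± 0.745 in Klf6-deleted cells and 30.1 ± 0.169 in Lyz2cre cells, followed by Rxrb at 16.1 ± 1.06 in Klf6-deleted cells and 11.4 ± 0.392 in Lyz2cre cells. Rxra came next at 10.2 ± 0.627 in Klf6-deleted cells and 4.50 ± 0.485 in Lyz2cre cells. Nr4a1 stood above Pparg and Ppard in Klf6-deleted cells with TNF, at 6.58 ± 0.956, overlapping Rara at 5.34 ± 0.299, and below them in Lyz2cre cells with TNF, at 0.635 ± 0.110. Pparg was at 3.31 ± 0.302 in Klf6-deleted cells with TNF and 1.82 ± 0.452 in Lyz2cre cells with TNF, and Ppard at 2.83 ± 0.142 in Klf6-deleted cells and 1.06 ± 0.129 in Lyz2cre cells.

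Among nuclear receptors outside the 10, 17 were tested without TNF. Of these, 3 were higher and 6 lower, against 27.6% and 29.3% of all genes tested, with a median log2 difference of -0.042. With TNF 13 were tested, with 3 higher and 4 lower, against 26.5% and 30.8% of all genes, and a median of -0.14. Scaled to total reads, 4 were higher and 4 lower without TNF and 7 higher and 1 lower with TNF, with medians of 0.091 and 0.19. Without TNF, 2 of the higher and 1 of the lower genes, Nr2f2 and Pgr among them, passed the filter only through the group where they were high, so nothing is read from that count. Nr1h3, the oxysterol sensor LXRα that drives cholesterol efflux, averaged 568 ± 50.9 normalized counts in untreated Klf6-deleted cells and 357 ± 14.6 in untreated Lyz2cre cells (SD, n = 3 each; log2 difference 0.67, limma, adjusted p = 9.4e-07). With TNF its log2 difference was -0.098 (limma, adjusted p = 0.163). Nr2f2, an orphan receptor of mesenchymal and venous cells, averaged 84.6 ± 12.9 in Klf6-deleted cells and 16.2 ± 2.80 in Lyz2cre cells without TNF, in the libraries with the higher stromal markers. Pgr, the progesterone receptor gene, was lower at 1.27 ± 1.55 in Klf6-deleted cells and 49.8 ± 3.69 in Lyz2cre cells (log2 difference -4.71, limma, adjusted p = 6.0e-07). With TNF, Rora, a receptor of the circadian and lipid programmes, averaged 372 ± 26.3 in Klf6-deleted cells and 185 ± 20.3 in Lyz2cre cells (log2 difference 1.01, limma, adjusted p = 9.0e-07). Nr1d1, the circadian repressor REV-ERBα, averaged 179.7 ± 28.7 in Klf6-deleted cells and 318 ± 49.4 in Lyz2cre cells, and Esrra, which drives mitochondrial genes, 1291 ± 135 in Klf6-deleted cells and 1784 ± 132 in Lyz2cre cells. Their log2 differences were -0.82 and -0.47, and scaled to total reads -0.49 and -0.14. Nr2c2, an orphan receptor, averaged 606 ± 102 in Klf6-deleted cells and 430.5 ± 30.7 in Lyz2cre cells with TNF, and its log2 difference without TNF was -0.26 (limma, adjusted p = 0.0035).

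Coactivators and corepressors had small differences with few exceptions. Of the 18 tested in each condition, 3 were higher and 6 lower without TNF, against 27.6% and 29.3% of all genes tested. With TNF 2 were higher and 9 lower, against 26.5% and 30.8%. The medians of these 18 were -0.086 and -0.18 (log2). Scaled to total reads, 4 were higher and 4 lower without TNF and 9 higher and 2 lower with TNF, with medians of 0.047 and 0.15, so the balance with TNF turned with the scaling. Ncoa4, a coactivator better known as the receptor that sends ferritin for degradation, averaged 2214 ± 8.73 normalized counts in untreated Klf6-deleted cells and 5645 ± 116 in untreated Lyz2cre cells (SD, n = 3 each; log2 difference -1.35, limma, adjusted p = 1.2e-15). Ncoa3, a histone acetyltransferase coactivator, was lower in both conditions, at 3664 ± 163 in Klf6-deleted cells and 6204 ± 279 in Lyz2cre cells without TNF and 1939.9 ± 128 in Klf6-deleted cells and 2530.2 ± 161 in Lyz2cre cells with TNF, and the log2 difference with TNF was -0.38 and, scaled to total reads, -0.056. Med1, the Mediator subunit that receptors contact, averaged 1318 ± 101 in Klf6-deleted cells and 1022 ± 40.9 in Lyz2cre cells without TNF, and its log2 difference with TNF was -0.23 (limma, adjusted p = 0.0108) but 0.092 when scaled to total reads. With TNF, the corepressor gene Nrip1 averaged 638 ± 14.6 in Klf6-deleted cells and 926 ± 32.5 in Lyz2cre cells and the arginine methyltransferase gene Carm1 607 ± 69.4 in Klf6-deleted cells and 872 ± 44.2 in Lyz2cre cells. Their log2 differences were -0.54 and -0.53, and scaled to total reads -0.21 and -0.20.

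For each receptor that passed the filter in both conditions, the gene with the most similar pattern was found by Pearson correlation of log2(CPM + 1) over the 12 libraries among 10543 other named genes. The libraries share 4 group levels and their depth, so the correlations are given as a description. Rxra was most like Mast3 (r = 0.999), which averaged 132 CPM in untreated Klf6-deleted cells against 175 in untreated Lyz2cre cells, and with TNF 89.1 in Klf6-deleted cells against 46.5 in Lyz2cre cells. The match of Pparg was Gtf2i (r = 0.998), that of Ppard Appl2 (0.998), that of Rara Fbxo33 (0.994), that of Nr3c1 Mfsd14b (0.992) and that of Rxrb Atg14 (0.984). Nr4a1 was most like Adamtsl5 (r = 0.984), at 25.5 CPM in untreated Klf6-deleted cells against 15.2 in untreated Lyz2cre cells, and with TNF 38.2 in Klf6-deleted cells against 5.94 in Lyz2cre cells. The loosest match was that of Nr4a2 with Mrps10 (r = 0.955).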

How the data were processed

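Total RNA of 12 libraries in 4 groups was analysed. The authors deposited a normalized signal per gene and library in 2 tables, 1 per condition, with Ensembl identifiers per the file headers. In each library all values were whole multiples of 1 step, with the farthest off by 5.3e-05 reads at a tolerance of 0.001, so each is a read count divided by a size factor and is called a normalized count. The size factors matched median-of-ratios factors recomputed for each table alone, which means separate normalization of the 2 tables, and 100% of values came out as whole reads. Cufflinks, GRCm39 and mm10 are named without roles, per the submitters' processing notes. For the aligner, counter and use of strand, nothing is given in the sources used here. Symbols were paired with 22867 of 22896 and 21411 of 21437 identifiers, and positions and exon lengths came from GENCODE vM21 (GRCm38).

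Genotypes were compared by limma 3.58.1 (R 4.3.3), with its trend option, on log2(value + 1), which understates changes of low genes, with Benjamini-Hochberg adjustment over all genes tested. The difference between conditions is a contrast of the within-table differences. The receptors, lists and rules were chosen with earlier results of these data known. Named genes were the 10 receptors, Klf6, up to 4 members per list and condition with the largest called changes, not all printed for marker lists and some not reported here, and the best-correlated gene of each receptor. No overlap or set test was made. Alternatives were edgeR 4.0.16 quasi-likelihood with TMM (7219 genes called without TNF and 6707 with it, against 7230 and 6711 with limma) and DESeq2 1.42.0 on the whole reads (6694 and 6268), total-read and TMM scaling, pseudocounts of 0.5 and 5, no filter, a filter at 5 CPM, the replicate number as a block and each library left out. The limma test was checked on simulated data. Tables were handled with Python 3.11.15, pandas 2.3.3 and numpy 2.4.6, and drawn with matplotlib 3.10.9. Reads carry no molecular identifiers, so depth limits mainly Nr4a2, Nr4a3 and Vdr.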

Additional observations from a re-analysis of the deposited data

Results flagged for a closer look

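For 7 of the 8 receptors tested the genotype difference itself differed between conditions in the contrast over all 12 libraries (limma, adjusted p below 0.05). It did so for 52.2% of all genes tested, and Nr4a3 and Vdr were not tested. The change, with TNF minus without, was 2.62 on the log2 scale for Nr4a1, 1.69 for Ppard, 1.57 for Rxra, 0.72 for Pparg, 0.37 for Rara, 0.34 for Rxrb and -0.33 for Nr3c1. Ppard and Rxra were lower in Klf6-deleted cells without TNF and higher with it, both past the test in each condition.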

How the results depend on the processing

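Calls of Vdr, Rxra, Ppard, Rara and Nr3c1 without TNF and of Nr4a1, Ppard, Rxra and Nr3c1 with TNF held under every alternative run. Vdr entered the test without TNF only through its Klf6-deleted libraries. The count of higher receptors was 1 to 3 without TNF and 3 to 5 with TNF when single libraries were left out, lowest without Klf6-deleted replicate 3 and replicate 2 of its condition. Receptors called with a change between conditions below 0 (adjusted p below 0.05) numbered 1, but 0 when scaled to total reads. With no filter, which adds Vdr to the genes tested, they numbered 2. The sign turned, below the threshold, for Rara with TNF (-0.017 without Klf6-deleted replicate 2 and -0.0011 without Lyz2cre replicate 2, up to 0.064 without others) and for the change of Nr4a2 between conditions (0.0073 without untreated Klf6-deleted replicate 3, down to -0.47 without replicate 2); the cause was not tested. Replicate numbers recur between groups, and the main fit did not pair them. Same-numbered libraries had correlations of 0.152, -0.0378 and 0.158 without TNF and -0.0209, -0.0123 and -0.0295 with TNF. Different-numbered ones ran from -0.230 to 0.114 without TNF and from -0.0015 to 0.0224 with TNF. Without TNF the values 0.152 and 0.158 thus lay above all different-numbered ones, so a pairing there cannot be told from these correlations. With the replicate block, 7284 genes were called without TNF, 6473 with TNF and 5758 between conditions, against 7230, 6711 and 5965, and Nr4a2 with TNF was not called (0.62, limma, adjusted p = 0.0514), the one receptor call that the block changed. Depth limits Nr4a3, at 1 to 30 reads per library, and Vdr with TNF, at 6 to 22.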
